A study of Mus musculus with 2 samples.

Results

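Enox1, Thsd4, Cadm2, Sec14l1, Klk1, Prss12 and Hmga2 are 7 of the 32227 genes counted in nuclei sorted from the thick ascending limb (TAL) of mouse kidney. They were chosen because earlier results on these same libraries showed more of their transcripts in cortex than in medulla, so the direction of that difference is a description of how they were picked and is not tested here. Enox1, Thsd4, Cadm2, Sec14l1 and Klk1 also belong to the study's own cortex score. The question put to them was whether they fall together from nucleus to nucleus along the way from cortex to medulla, or one after another.

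The TAL carries salt out of the tubule without water, through the cotransporter NKCC2 (Slc12a1), and its cells change in shape and transport from the inner stripe of the outer medulla up to the macula densa in the cortex. The study names 3 kinds of TAL cell, TAL-α, TAL-β and TAL-γ, which differ in claudins and potassium channels, and sets apart the macula densa (MD) cells, which sense luminal salt. The 7 genes share no pathway. Enox1 encodes a cell surface oxidase with disulfide-thiol exchange activity. Thsd4 encodes a secreted ADAMTS-like protein that binds fibrillin and helps to assemble microfibrils. Cadm2 encodes an immunoglobulin-type adhesion molecule best known from synapses, and Sec14l1 a lipid-binding protein that also restrains the RNA sensor RIG-I. Klk1 encodes tissue kallikrein, which releases kinins from kininogen and is made in the distal part of the nephron. Prss12 encodes neurotrypsin, a protease that cleaves agrin, and Hmga2 an AT-hook protein that bends DNA and is mostly active in embryonic cells.

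Both libraries came from male B6 NKCC2-INTACT mice, labelled as WT and with an age of 12 whose unit is not given in the sources used here. In these mice a tamoxifen-dependent Cre driven by Slc12a1 tags the nuclear envelope of NKCC2 cells with Sun1-sfGFP, and tamoxifen was given at 1 mg per day for 5 days before 10 days of induction. The outer 20% or so of the kidney depth was sliced off as cortex and everything below it was taken as medulla, so the medulla portion includes deep cortex. There was 1 library per region, and a difference between regions cannot be told apart from a difference between libraries.

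The cortex library held 16457300 counts in 5442 barcodes and the medulla library 20947211 counts in 8121 barcodes, with medians of 2427 and 2430 counts per barcode and 0 barcodes in common. At least 10 Slc12a1 counts were found in 5218 and 7967 barcodes, and these were taken as TAL nuclei. They were split by marker counts into MD nuclei (Nos1 plus Pappa2 at 3 or more), then TAL-β (Tmem52b at 2 or more), then TAL-γ (Tmem207 plus Gpc5 at 2 or more), with TAL-α as the remainder. This gave 2824 TAL-α, 1493 TAL-β, 248 TAL-γ and 653 MD nuclei in cortex, and 3776, 571, 3542 and 78 in medulla. None of the 7 genes took part in the split. Levels are counts per 1000000 (CPM) of the summed counts of a class. Their intervals are 95% Poisson intervals, those of ratios of levels are conditional binomial and those of shares Clopper-Pearson. A ratio to a product of shares has the interval of the observed share divided by the product. That product comes from the same nuclei and was held fixed, so its own error is left out. A ratio between folds has a normal interval on the log scale. All intervals cover counting error or the drawing of nuclei within a library only, because nuclei are not replicates.

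The genes lie on 7 different chromosomes of GRCm39. Enox1 (ENSMUSG00000022012) is at chr14:77393242-77959206 on the plus strand, Thsd4 (ENSMUSG00000032289) at chr9:59874214-60429329 on the minus strand and Cadm2 (ENSMUSG00000064115) at chr16:66451872-67417816 on the minus strand. Sec14l1 (ENSMUSG00000020823) is at chr11:117005567-117050094 on the plus strand and Klk1 (ENSMUSG00000063903) at chr7:43874725-43879048 on the plus strand. Prss12 (ENSMUSG00000027978) is at chr3:123240470-123300398 on the plus strand and Hmga2 (ENSMUSG00000056758) at chr10:120197173-120313095 on the minus strand. The genes range from 4324 bases for Klk1 to 965945 bases for Cadm2, and no other protein-coding gene of GENCODE M39 overlaps any of them. Klk1 has a family of closely similar Klk1b genes, and reads could be split between them.

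The promoters of the 3 genes that fell furthest along the medullary axis described below are shown first, as 250 bases before and 50 bases after each annotated start, because their levels all fell by more than 20-fold there. The promoter of Klk1 is added because it held a match, and it was picked after the matches were seen. The sequences are those of RefSeq on GRCm38.p6, in which all 7 members were found with 9 promoters, and each matched GRCm39 exactly at 1 place, whose coordinates are given. Capitals mark matched letters.
Enox1, chr14:77393953-77394252, plus strand: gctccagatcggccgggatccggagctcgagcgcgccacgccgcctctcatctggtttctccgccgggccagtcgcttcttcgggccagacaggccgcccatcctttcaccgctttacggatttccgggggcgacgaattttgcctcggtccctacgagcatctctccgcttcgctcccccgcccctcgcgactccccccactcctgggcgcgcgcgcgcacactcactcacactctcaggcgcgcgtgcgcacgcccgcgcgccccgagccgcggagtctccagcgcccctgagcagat
Thsd4, upstream start, chr9:60418269-60418568, minus strand: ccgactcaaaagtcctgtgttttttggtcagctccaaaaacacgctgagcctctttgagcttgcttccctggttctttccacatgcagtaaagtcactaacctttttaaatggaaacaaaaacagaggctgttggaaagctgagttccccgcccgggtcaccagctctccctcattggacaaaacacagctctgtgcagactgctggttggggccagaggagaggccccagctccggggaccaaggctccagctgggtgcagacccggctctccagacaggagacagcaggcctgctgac
Thsd4, downstream start, chr9:60048454-60048753, minus strand: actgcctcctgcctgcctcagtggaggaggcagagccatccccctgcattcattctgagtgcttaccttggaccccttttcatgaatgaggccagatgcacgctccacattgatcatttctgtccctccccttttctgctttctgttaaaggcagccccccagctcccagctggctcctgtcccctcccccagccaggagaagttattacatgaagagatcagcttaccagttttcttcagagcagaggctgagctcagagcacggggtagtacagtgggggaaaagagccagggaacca
Cadm2, chr16:67417747-67418046, minus strand: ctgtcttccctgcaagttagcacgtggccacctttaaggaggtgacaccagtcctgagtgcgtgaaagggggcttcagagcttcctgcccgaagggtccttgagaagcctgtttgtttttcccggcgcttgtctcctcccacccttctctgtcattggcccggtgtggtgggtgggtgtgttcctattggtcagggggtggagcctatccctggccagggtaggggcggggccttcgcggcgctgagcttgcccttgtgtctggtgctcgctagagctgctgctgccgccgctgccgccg
Klk1, chr7:43874534-43874833, plus strand: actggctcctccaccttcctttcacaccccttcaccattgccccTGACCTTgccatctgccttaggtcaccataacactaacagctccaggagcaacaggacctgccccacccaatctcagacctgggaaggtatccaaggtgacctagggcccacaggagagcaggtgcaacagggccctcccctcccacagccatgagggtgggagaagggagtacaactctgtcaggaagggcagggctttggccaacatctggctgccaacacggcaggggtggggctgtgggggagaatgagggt

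The letters searched, on both strands, were the full HNF1 motif and its shorter form GTTAAT, TCAAGGTCA and its core AAGGTCA for estrogen-related receptors, GCCNNNGGC for TFAP2, and TATAAA for the TATA box. The shorter forms overlap the longer ones by construction. Klk1 held the core AAGGTCA on the opposite strand, from 206 to 200 bases before its start, and 4.72% of the 32851 promoters in the table held it. The downstream promoter of Sec14l1 held GTTAAT, which 7.1% of all promoters held. The other 7 promoters of the members held none of the 6 sets of letters. Of all promoters, 0.00913% held the full HNF1 motif, 0.423% TCAAGGTCA, 16.6% GCCNNNGGC and 13.6% TATAAA. The Enox1 promoter is rich in G and C (70.3%), and both Thsd4 promoters are at 55%.

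In TAL-α nuclei, all 7 genes were more than 2-fold higher in the cortex library, which is the comparison that led to their choice. For reference, 8.84% of the 12585 genes with at least 50 counts were at least 2-fold higher there, and nothing is read from the members' count. Enox1 measured 2577 CPM in the cortex library against 829 CPM in medulla, a ratio of 3.11 (3.03 to 3.19). Thsd4 was at 2557 and 930 CPM, a ratio of 2.75 (2.68 to 2.82). Cadm2 was at 770 and 277 CPM, a ratio of 2.78 (2.66 to 2.92). At least 1 count was found in 94%, 92.5% and 65.3% of cortical and in 42.9%, 43.9% and 24.7% of medullary TAL-α nuclei, at median depths of 2425 and 2404 counts. In medullary barcodes with at most 2 Slc12a1 counts, taken as barcodes outside the TAL, the shares were 3.45%, 7.59% and 3.45% at a median of 3924 counts, and in such cortical barcodes 10.1%, 14.6% and 16.5% at 2874 counts. Hmga2 was found in 4.14% of these medullary barcodes (14.1 CPM), above its 1.43% in medullary TAL-α, so they are no background for Hmga2.

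Sec14l1 was at 671 and 264 CPM, a ratio of 2.54 (2.42 to 2.67). Klk1 was at 767 and 353 CPM, a ratio of 2.17 (2.08 to 2.27), and its interval overlaps that of Prss12. Prss12 was at 63.9 and 28.3 CPM, a ratio of 2.26 (1.95 to 2.63). The rarest member, Hmga2, had the largest ratio, 4.34 (3.3 to 5.77), from 31 and 7.14 CPM with 247 and 67 counts. The median of the members was 2.75, against 1.05 over all genes tested. TAL-α nuclei of cortex also carried more transcripts of 8 proximal tubule genes (2552 CPM in sum, against 423 CPM in medulla, with all 8 genes counted in both). With nuclei holding 3 or more of these transcripts left out, the Enox1 ratio was 3.55 and the Klk1 ratio 2.44. The part of proximal tubule transcripts outside such nuclei was not tested.

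**Figure D1:**
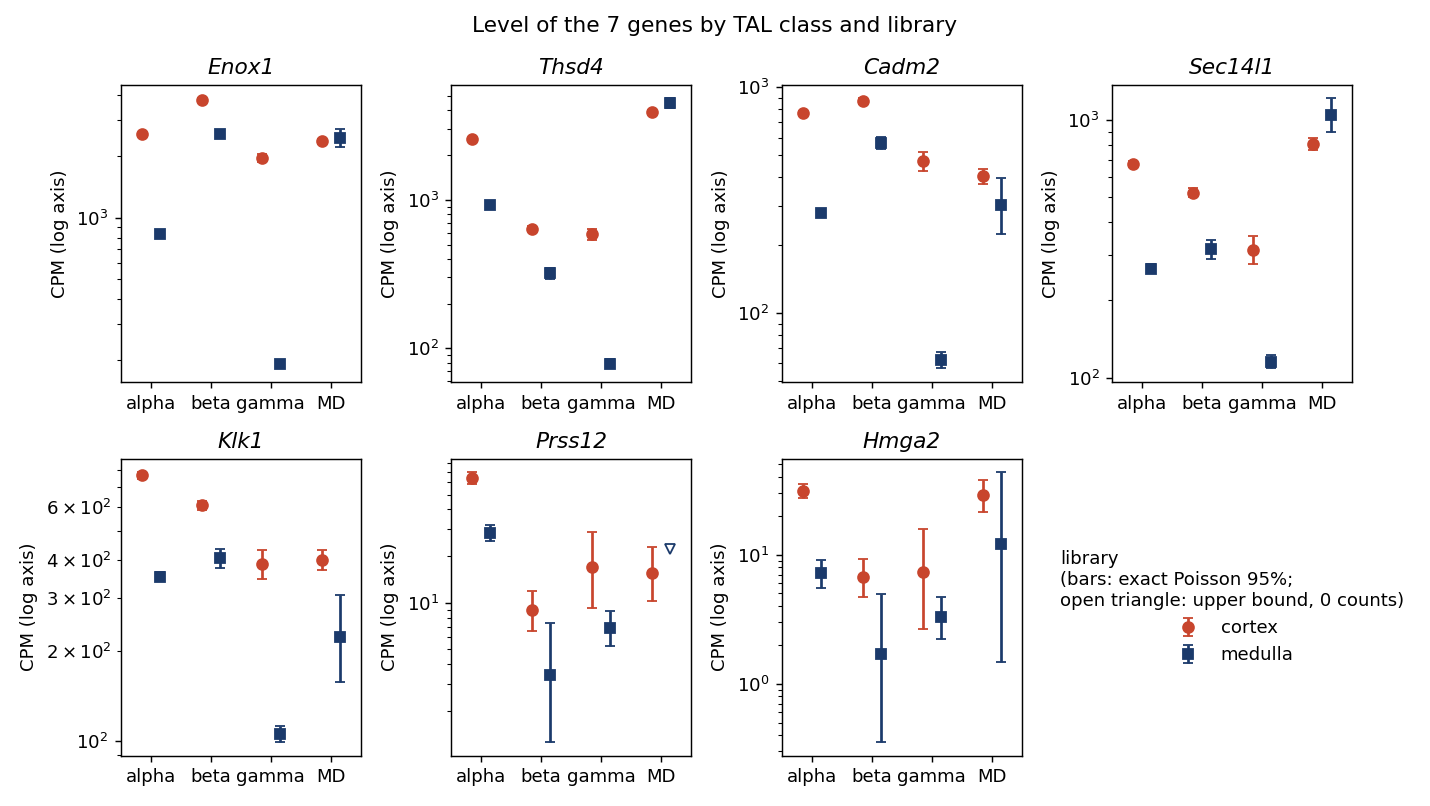
CPM (log axis) of each gene in the 4 TAL classes of the cortex library (red circles) and the medulla library (blue squares), with exact Poisson 95% bars that cover counting error only. Cortex lies above medulla in TAL-α, TAL-β and TAL-γ for all 7 genes, while in MD nuclei Thsd4 and Sec14l1 lie higher in medulla, Enox1 lies slightly higher there with overlapping bars, and the open triangle is the upper bound of Prss12 at 0 counts.

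The classes did not rank in the same order for the 7 genes. Enox1 was highest in cortical TAL-β (3788 CPM), followed by medullary TAL-β (2579 CPM), cortical TAL-α (2577 CPM) and medullary MD nuclei (2458 CPM), whose intervals overlap from neighbour to neighbour. Cortical MD nuclei (2363 CPM) also overlapped medullary MD nuclei, cortical TAL-γ (1960 CPM) came next, and medullary TAL-α and TAL-γ (192 CPM) were lowest. Cadm2 was also highest in cortical TAL-β (868 CPM), above cortical TAL-α, medullary TAL-β (567 CPM) and cortical TAL-γ (470 CPM), and it was lowest in medullary TAL-γ (62.1 CPM). Its MD levels, 405 CPM in cortex and 301 CPM in medulla, had overlapping intervals.

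Thsd4 had another order. It was highest in MD nuclei, with 4487 CPM in medulla and 3934 CPM in cortex, then in TAL-α. In TAL-β it fell to 640 CPM in cortex and 320 CPM in medulla, which is 0.25 (0.241 to 0.259) and 0.345 (0.316 to 0.375) of the TAL-α level of the same library. Cortical TAL-γ (584 CPM) overlapped cortical TAL-β, and medullary TAL-γ was lowest (78.8 CPM). Sec14l1 shared the top place of MD nuclei, with 1042 CPM in medulla and 808 CPM in cortex. It was less unequal between cortical TAL-α and cortical TAL-β (522 CPM), and its medullary TAL-β (314 CPM) and cortical TAL-γ (313 CPM) levels overlapped.

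Klk1 was highest in cortical TAL-α, then in cortical TAL-β (611 CPM). Medullary TAL-β (406 CPM), cortical MD nuclei (401 CPM), cortical TAL-γ (389 CPM) and medullary TAL-α followed with intervals that overlap from neighbour to neighbour, and medullary MD nuclei (223 CPM) and medullary TAL-γ (106 CPM) were lowest. Prss12 was highest in cortical TAL-α, and Hmga2 in cortical TAL-α and cortical MD nuclei (28.8 CPM), whose intervals overlap. In cortical TAL-β Prss12 was at 8.99 CPM and Hmga2 at 6.69 CPM, which is 0.141 (0.102 to 0.19) and 0.216 (0.147 to 0.308) of TAL-α. Prss12 had 0 counts in the 78 medullary MD nuclei, where 3 counts would be 18.1 CPM. Prss12 in medullary TAL-α (28.3 CPM, 25 to 31.9) lay above cortical TAL-β, cortical MD nuclei (15.6 CPM) and medullary TAL-γ (6.85 CPM) with intervals apart, and Hmga2 in medullary TAL-α above medullary TAL-γ (3.31 CPM). Neighbours in the lower part of both orders had overlapping intervals.

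Compared with medullary TAL-α, medullary TAL-β held 3.11 times as much Enox1 (3 to 3.23) and 2.05 times as much Cadm2 (1.9 to 2.21). In cortex the same ratios were 1.47 (1.44 to 1.5) and 1.13 (1.08 to 1.17). The medullary classes lay at different places on the axis described below. From the first to the last quintile of nuclei, median scores ran from -1.21 to 1.72 in medullary TAL-β. In medullary TAL-α they ran from -0.228 to 2.76. The part of this difference in the ratios was not tested. Between cortex and medulla, TAL-β differed by 1.47 (1.42 to 1.52) for Enox1 and 1.53 (1.43 to 1.64) for Cadm2. Prss12, with 47 and 6 counts, and Hmga2, with 35 and 3 counts, were the members past 2-fold in TAL-β, at 2.63 (1.12 to 7.53) and 3.92 (1.24 to 19.9). That is 2 of 7 members, of which Hmga2 had under 50 counts, against 8.98% of 10489 genes with at least 50. Thsd4 was just under 2-fold with an interval from 1.82 to 2.19. The Prss12 ratio was 1.44 with likely doublets left out and 4.72 with class thresholds raised by 1. The members' median in TAL-β was 1.66, against 1.05 over all genes. The difference between the TAL-α and TAL-β ratios was not tested.

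MD nuclei went another way in 2 of the genes. The ratios of all genes in MD nuclei were not computed, so nothing is read from this number. The proximal tubule genes summed to 1852 CPM in cortical and to 572 CPM in medullary MD nuclei, and their part was not tested. Thsd4 was lower in cortical than in medullary MD nuclei, at 0.877 (0.813 to 0.947), and Sec14l1 likewise at 0.776 (0.662 to 0.914). Enox1 was at 0.962 with an interval that holds 1 (0.868 to 1.07), while Cadm2 at 1.35 (1.01 to 1.83) and Klk1 at 1.8 (1.29 to 2.58) were higher in cortex. Only 78 medullary MD nuclei were found, and the intervals leave out differences between animals. The macula densa lies in the cortex and the medulla portion includes deep cortex, so these ratios may compare outer with deep cortex. Thsd4 and Sec14l1 were both highest in MD nuclei among the classes. In TAL-α the label of cortex-side genes only restates the comparison that led to their choice.

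Within the medulla library, 5 of the 7 genes were at least 2-fold higher in TAL-β than in TAL-γ, against 3.55% of 11001 genes. So were 8 of the 8 other genes of the study's cortex score, with a median ratio of 8.1 against 3.84 for the members. The study proposes that medullary TAL-β cells lie in the outer stripe and TAL-γ cells deeper, in the inner stripe. Members and score genes were all chosen for higher levels in cortex, so higher levels in TAL-β may follow from that choice. Nothing is read from these counts, and the sizes of the ratios are the description. The ratios were 13.5 (12.7 to 14.2) for Enox1, 9.14 (8.23 to 10.1) for Cadm2, 4.06 (3.63 to 4.55) for Thsd4, 3.84 (3.48 to 4.24) for Klk1 and 2.72 (2.45 to 3.02) for Sec14l1. Prss12 at 0.499 (0.176 to 1.15) and Hmga2 at 0.515 (0.101 to 1.66) had too few counts to be placed. Enox1 stood in place 13 of all genes in this ratio and Cadm2 in place 23. Cortical nuclei of the TAL-γ class, 248 in number, held 10.2 times as much Enox1 (9.55 to 10.9) and 7.41 times as much Thsd4 (6.59 to 8.33) as medullary TAL-γ nuclei. The study describes TAL-γ cells as exclusive to medulla. Of the 248 cortical nuclei of the class, 132 lay in deposited cluster 2 of cortex. In that cluster 4 of 4 TAL-β and 2 of 4 TAL-γ markers were raised. In medulla, 202 of the 3542 TAL-γ nuclei lay in deposited cluster 6, with the same numbers of markers raised. Medullary clusters 5 and 7 held 936 and 420, with 3 and 2 of 4 TAL-γ markers raised. Medullary cluster 2 held 1006, with 1 of 4 raised, and Gpc5, a gene of the split, was among its leading genes. Medullary clusters 3 and 4 held 241 and 359, with no TAL-γ marker raised, so the class is wider than the study's TAL-γ cells. The proximal tubule genes summed to 3597 CPM in the cortical TAL-γ class and to 400 CPM in the medullary class. The part of these transcripts, and of the make-up of the class by cluster, in the TAL-γ difference between libraries was not tested.

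The clusters that were deposited with the counts, 13 per library, gave another view of the levels. Enox1 and Cadm2 peaked in cortical cluster 4 (6087 and 1544 CPM), which held 426 TAL-β nuclei of 564 barcodes. Thsd4 peaked in cortical cluster 3 (4967 CPM), which held 537 MD nuclei of 715 barcodes, and Sec14l1 in medullary cluster 12 (1079 CPM), which held 71 MD nuclei of 99. The Thsd4 peak overlapped medullary cluster 12 (4865 CPM), and the Sec14l1 peak overlapped cortical clusters 4, 1 and 3 (958, 948 and 915 CPM). Prss12 peaked in cortical cluster 1 (107 CPM) and Hmga2 in cortical cluster 8 (75.6 CPM), both made mostly of TAL-α nuclei, and the Prss12 peak overlapped cluster 8 (94.5 CPM). Klk1 peaked in cortical cluster 11 (1454 CPM), a group of 94 barcodes, 60 of them TAL-α, whose leading genes were mitochondrial and in which 2 of 8 proximal tubule markers were raised. The TAL-α class, as the remainder, reached into clusters of other types. It had 117 and 126 nuclei in cortical clusters 2 and 4 and 112 in medullary cluster 6, all with TAL-β markers raised. Another 160 lay in cortical cluster 3, with MD markers raised.

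In medullary clusters 2, 4 and 5, which hold TAL-α and TAL-γ nuclei, Enox1 was at 15.5, 14.7 and 34.1 CPM and Thsd4 at 15.5, 12.1 and 8.21 CPM. Sec14l1 kept 79.6, 110 and 107 CPM there, and Klk1 98, 58 and 51.8 CPM. The proximal tubule clusters, cortical 13 and medullary 11, held 33.3 and 8.45 CPM of Enox1 and 16.6 and 8.45 CPM of Sec14l1. Against the proximal tubule cluster of the same library, Enox1 had overlapping intervals in medullary clusters 2 and 4 and was higher in cluster 5, where the intervals were 27 to 42.5 and 2.3 to 21.6. Sec14l1 was higher in all 3, with intervals apart.

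**Figure D2:**
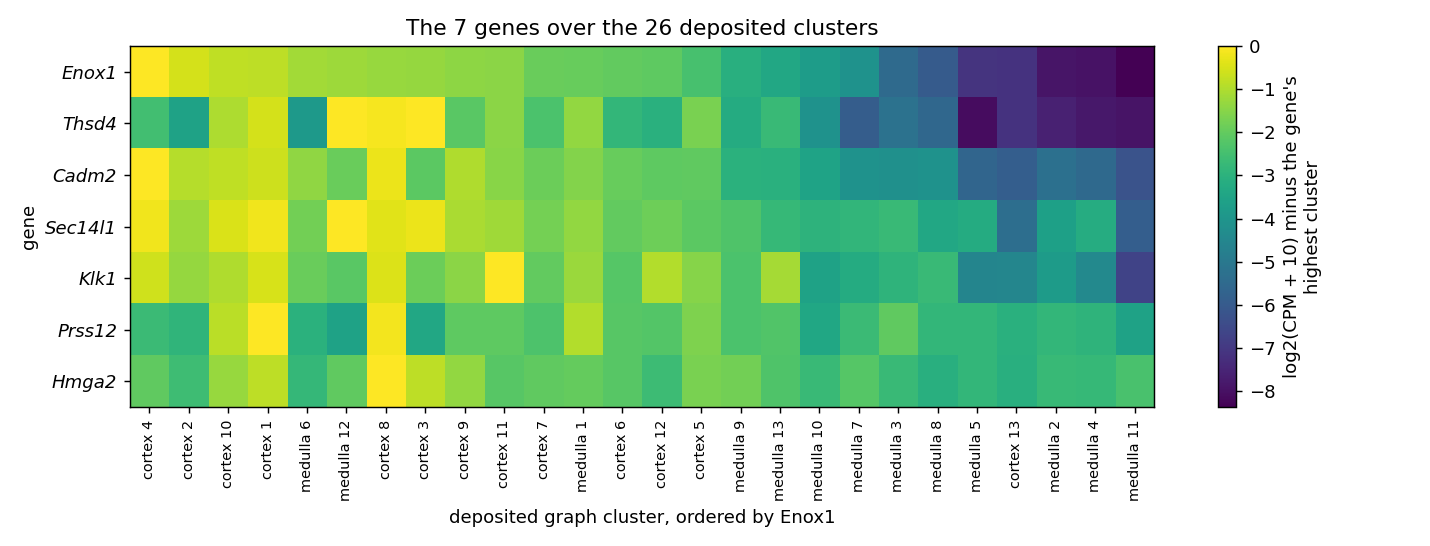
The 7 genes (rows) over the 26 deposited clusters of both libraries (columns, ordered by Enox1), coloured by log2(CPM + 10) minus the value in the gene's highest cluster. Enox1, Thsd4 and Cadm2 darken most towards the medullary clusters 2, 4 and 5, while Thsd4 is also low in the TAL-β clusters cortex 2, cortex 4 and medulla 6.

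Over the 26 clusters, the logged levels of Enox1 and Cadm2 had the closest likeness within the set (Pearson r = 0.97), and those of Enox1 and Prss12 the weakest (r = 0.418). The points share 2 libraries and differ in size, and r is given as a description. Of 8418 genes with at least 500 counts, those most like Enox1 were Car15 (0.977), Cadm2 and Ier3 (0.97). Those most like Thsd4 were Ier3 (0.937), Tmem117 (0.936) and Arhgap8 (0.932). Cadm2 was nearest to Shd (0.981), Atp6v1b1 (0.975), a subunit of the proton pump, and Enox1. Sec14l1 was nearest to Lgals3 (0.966), Flvcr1 (0.951) and Tmem117 (0.95). Genes close to Klk1 included Klk1b5 (0.945) and Tfcp2l1 (0.933). Klk1b5 is a near copy of Klk1, so shared reads cannot be told apart from shared levels. Prss12 was nearest to Adrb1 (0.82), Rab31 (0.819) and Snap91 (0.783), and Hmga2 to Chst8 (0.849), Cacna2d1 (0.842) and Adamts10 (0.835), both with lower likeness. Over both libraries Prss12 had 932 counts and Hmga2 461, and many of their cluster levels lay near or below the 10 CPM added before the log. Their lower r values, also with the other members, cannot be told apart from an effect of sparse counts.

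To follow the genes from nucleus to nucleus, each nucleus was given an axis score from other genes. It is the mean logged level of 13 medulla-side genes of the study's medulla score, among them Ranbp3l, Sgcz, Slc5a3 and Pax2, minus that of the 8 cortex score genes that are no members, among them Pde10a, Sfrp1, Car15, Pth1r, 9530026P05Rik, Cdh6 and Tmem117. The study chose these lists on these libraries for the same regional difference that led to the members, so a fall along the axis was to be found by construction, and the size and the order of the falls are the description. The 3776 medullary TAL-α nuclei were ranked by this score and cut into 5 quintiles and 10 deciles. Median counts per nucleus were 2602 in the first quintile and 2315 in the last, Slc12a1 rose from 17480 to 22631 CPM, and the proximal tubule genes went from 532 to 35.7 CPM.

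All 7 genes were at least 2-fold lower in the last quintile, 6 of them with at least 50 counts, against 8.7% of 8069 genes, with a median fold of 9.75 against 1.02 over all genes. The size of the fall differed by gene. Enox1 was at 2506, 971, 299, 89.5 and 20.7 CPM from the first quintile to the last, a fall of 121-fold (87.3 to 173). Thsd4 was at 2670, 1244, 347, 72.9 and 24.2 CPM, a fall of 110.5-fold (81.6 to 154). Their folds differed by a factor of 1.1 (0.701 to 1.71), an interval that holds 1. With the 8 cortex score genes alone as the axis, the folds were 52.2 for Enox1 and 51.7 for Thsd4, and from the first to the last decile they were 266 and 188. Cadm2 was at 799, 309.8, 114, 47.9 and 35.1 CPM, a fall of 22.8-fold (17.6 to 29.9), and most of it came before the last 2 quintiles.

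Klk1 fell step by step, at 722, 477, 261, 153 and 78.2 CPM, by 9.22-fold (7.73 to 11.1). Sec14l1 was at 607, 263, 159, 132 and 113 CPM, and it fell by 5.38-fold (4.63 to 6.29), most of it between the first and the third quintile. The Enox1 fold was 13.1 times that of Klk1 (9.05 to 19) and 22.5 times that of Sec14l1 (15.7 to 32.3), so the genes did not fall by the same factor. Prss12 had 136 counts in the first quintile and 12 in the last, a fall of 9.75-fold (5.4 to 19.3), and Hmga2 37 and 5 counts, a fall of 6.37-fold (2.5 to 20.8).

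Deciles of the nuclei show where each gene went down. Relative to the mean of the first 2 deciles, Enox1, Cadm2 and Hmga2 were below 50% in decile 3, Thsd4, Sec14l1 and Prss12 in decile 4, and Klk1 in decile 5. Enox1 and Thsd4 were below 10% of that start in decile 6 and Cadm2 in decile 7. Klk1 came below it in decile 10, and Sec14l1, Prss12 and Hmga2 never did. In the last decile, 0.461% of the start was left for Enox1 and 0.607% for Thsd4. The share was 4.49% for Cadm2, 9.32% for Klk1, 13.8% for Prss12, 19.4% for Sec14l1 and 25.1% for Hmga2. By these point values, which carry no interval, all 7 genes passed 50% within 3 neighbouring deciles, and the share left at the end differed by gene. Prss12 had 265 counts and Hmga2 67 over all medullary TAL-α nuclei, so their deciles and end shares are not resolved.

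The last quintile was set beside medullary barcodes with at most 2 Slc12a1 counts, 145 in number. Of the 154 medullary barcodes under 10 Slc12a1 counts, 102 lay in the proximal tubule cluster and 48 in medullary cluster 9. In cluster 9, 6 of 6 connecting tubule and principal cell markers and 4 of 6 distal convoluted tubule markers were raised. The proximal tubule cluster held 4.22 CPM of Klk1 and 10.6 CPM of Thsd4, against 44.1 and 26.5 CPM in the 145 barcodes. The intervals were apart for Klk1 and overlapped for Thsd4. The 145 barcodes are therefore no clean background for Klk1. Thsd4 in the last quintile was at 0.912 times the level of the 145 barcodes (0.496 to 1.77) and Enox1 at 2.35 times (0.918 to 7.66). Neither was resolved from these barcodes. Cadm2 was at 3.98 times (1.61 to 12.7) and Sec14l1 at 6.39 times (3.4 to 13.5), both above it. Klk1 was at 1.77 times (1.15 to 2.84). Hmga2 was at 0.204 times (0.0524 to 0.706), below these barcodes. Klk1 was also the only member that was enriched in barcodes of at most 100 counts that were not called as nuclei, with 2.57 times (2.42 to 2.73) its level in called barcodes of medulla and 2.31 times (2.23 to 2.4) in cortex. The other 6 members ranged from 0.753 to 1.24 times and Slc12a1 was at 1.11 and 1.04 times. In these uncalled barcodes each member was higher in cortex than in medulla, with Klk1 at 1475 and 619 CPM and Enox1 at 2273 and 580 CPM. The part of such free transcripts in the slower fall of Klk1, and in the ratios between libraries, was not tested.

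Cortical TAL-α nuclei covered a shorter stretch of the axis, with median scores from -1.27 in their first quintile to 0.562 in their last, against -0.228 to 2.76 in medulla. Enox1 fell by 2.94-fold (2.8 to 3.09) over it, from 3918 to 1331 CPM, and Sec14l1 by 3.45-fold (3.12 to 3.83), from 1043 to 302 CPM. Thsd4 fell by 2.14-fold (2.04 to 2.24) and Klk1 by 1.66-fold (1.52 to 1.8). Here the Enox1 fold was 0.852 times that of Sec14l1 (0.762 to 0.953), the other way round from medulla. The proximal tubule genes rose along the cortical axis from 560 to 4030 CPM, and their part in these falls was not tested.

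In medullary TAL-β nuclei, Enox1 fell by 14.7-fold (12.4 to 17.6) and Cadm2 by 15.1-fold (10.5 to 22.5), against 6.83-fold (4.62 to 10.4) for Thsd4, 6.28-fold (4.43 to 9.13) for Sec14l1 and 3.12-fold (2.41 to 4.07) for Klk1. In medullary TAL-γ, Enox1 fell by 31-fold (22.3 to 44.4) from 651 CPM, and Sec14l1 by 1.6-fold (1.32 to 1.94) from 155 CPM. The part of the 202 nuclei of this class that lay in medullary cluster 6 was not tested. Nor was that of its nuclei in clusters with few or no TAL-γ markers raised. Prss12 and Hmga2 were too rare for a fall in TAL-β or TAL-γ.

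When TAL-α nuclei of both libraries were ranked together and compared within deciles of the same score, the difference between the libraries was smaller. Over the 8 deciles with at least 20 nuclei of each library, the geometric mean of the cortex to medulla ratios, weighted by the nuclei of both libraries, was 1.12 for Enox1, 1.07 for Thsd4, 1.08 for Cadm2, 1.06 for Sec14l1 and 1.1 for Klk1, compared with 2.17 to 3.11 without the axis. It was 0.906 for Prss12 and 2.13 for Hmga2, without deciles in which a library had 0 counts of the gene. In deciles 2 to 5 the Enox1 ratio lay between 0.985 and 1.02. In decile 7, with 92 cortical nuclei, Enox1 was 1.7 times (1.45 to 1.98) and Thsd4 1.53 times (1.33 to 1.77) higher in cortex, whereas Sec14l1 was at 1.08 (0.778 to 1.47). In decile 8, with 24 cortical nuclei, the ratios reached 2.06 (1.26 to 3.22) for Enox1 and 2.84 (1.93 to 4.05) for Thsd4. The interval of Enox1 lay above 1 in 4 of the 8 deciles. Because the score was built from genes that differ between the libraries, equal scores were partly set by construction, and Hmga2 rests on at most 13 medullary counts per decile.

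Detection in single nuclei was compared after each nucleus was thinned to 1000 counts, which left out 18 of the medullary TAL-α nuclei and none of the cortical ones. Of 3758 medullary TAL-α nuclei, 40.4% (38.8 to 42) showed none of the 7 genes. If the genes were detected independently at their own shares, 22.5% would, so empty nuclei were 1.79 times (1.72 to 1.86) as common as the product of the shares. At the high end, 337 nuclei (8.97%, 8.07 to 9.93) showed 4 or more of the genes, 5.44 times the 1.65% of the product. Nuclei with exactly 1 gene were fewer than the product, at 23.6% against 39.6%. The variance of the number of genes per nucleus was 2.07 times that of independent genes. Of the 3776 medullary TAL-α nuclei before thinning, 1489 lay in deposited cluster 1 of medulla, a cluster with 1570 CPM of Enox1. Medullary clusters 2, 3 and 4 held 295, 788 and 644, and their Enox1 levels were 15.5, 128 and 14.7 CPM. The part of this make-up by cluster in the falls and in co-detection was not tested.

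The excess was smaller within steps of the axis. When the product was formed within each quintile of the score, it gave 38% empty nuclei and 7.68% with 4 or more, so the observed shares were 1.06 and 1.17 times those values. In medullary barcodes with at most 2 Slc12a1 counts, detection at the same depth was 0.69% for Enox1 and 5.52% for Klk1, against 31.5% and 25% in medullary TAL-α, while for Hmga2 it was 1.38% against 0.452%. In such cortical barcodes it reached 16.5%, for Klk1. With nuclei that hold 3 or more proximal tubule transcripts left out, the ratio for empty nuclei was 1.79.

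**Figure D3:**
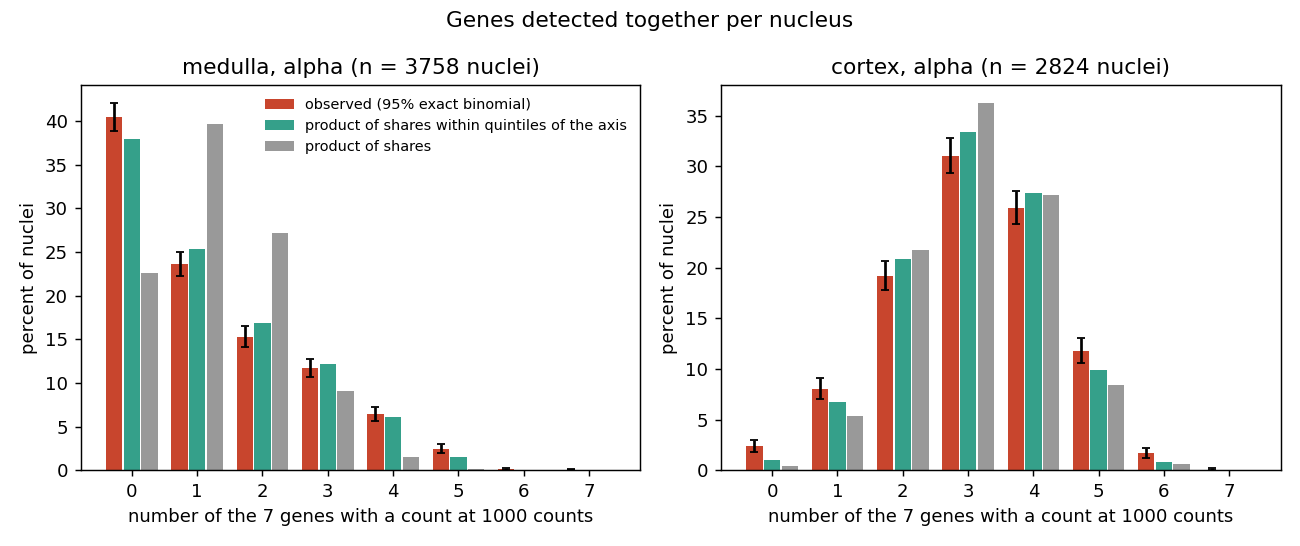
Percent of nuclei with 0 to 7 of the genes detected at 1000 counts, for 3758 medullary and 2824 cortical TAL-α nuclei, as observed (red, 95% exact binomial bars), as the product of the genes' shares within quintiles of the axis (green) and as the product over all nuclei (grey). In medulla the observed bars lie far from grey and near green, with 40.4% of nuclei showing none of the genes against 22.5% for grey and 38% for green.

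Pairs of genes were compared in the same way. Of the 21 pairs, 17 had at least 5 nuclei expected to show both genes, and all 17 were seen together more often than the product, with a median ratio of 1.71 and intervals above 1 for 15. Enox1 and Thsd4 were both detected in 808 nuclei (21.5%), 2.01 times the product (1.89 to 2.13). Enox1 and Cadm2 were at 2.08 times (1.89 to 2.29) and Thsd4 and Cadm2 at 2.04 times (1.85 to 2.23). Sec14l1 and Klk1 were the least joined of the commoner pairs, at 1.45 times (1.28 to 1.63). Sec14l1 with Prss12, with 18 joint nuclei, was at 1.15 times (0.681 to 1.81), an interval that holds 1.

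Within quintiles of the axis, the median of the 17 pairs was 1.1 and their range 0.819 to 1.55. Enox1 with Thsd4 went to 1.08, and the correlation of their thinned counts from 0.46 to 0.14 over 3758 nuclei of 1 library. For comparison, members and medulla-side genes were seen together at a median of 0.722 times the product over 91 pairs, and at 0.986 within quintiles. Medulla-side genes among themselves were at a median of 1.11 over 78 pairs, 77 of them above 1, and at 0.992 within quintiles. Their median correlation of thinned counts was 0.16, against 0.146 for the members. More joint detection than the product was thus not particular to the members. Members paired with TAL genes of all classes such as Umod and Kcnj1 were at a median of 0.992 over 54 pairs.

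**Figure D4:**
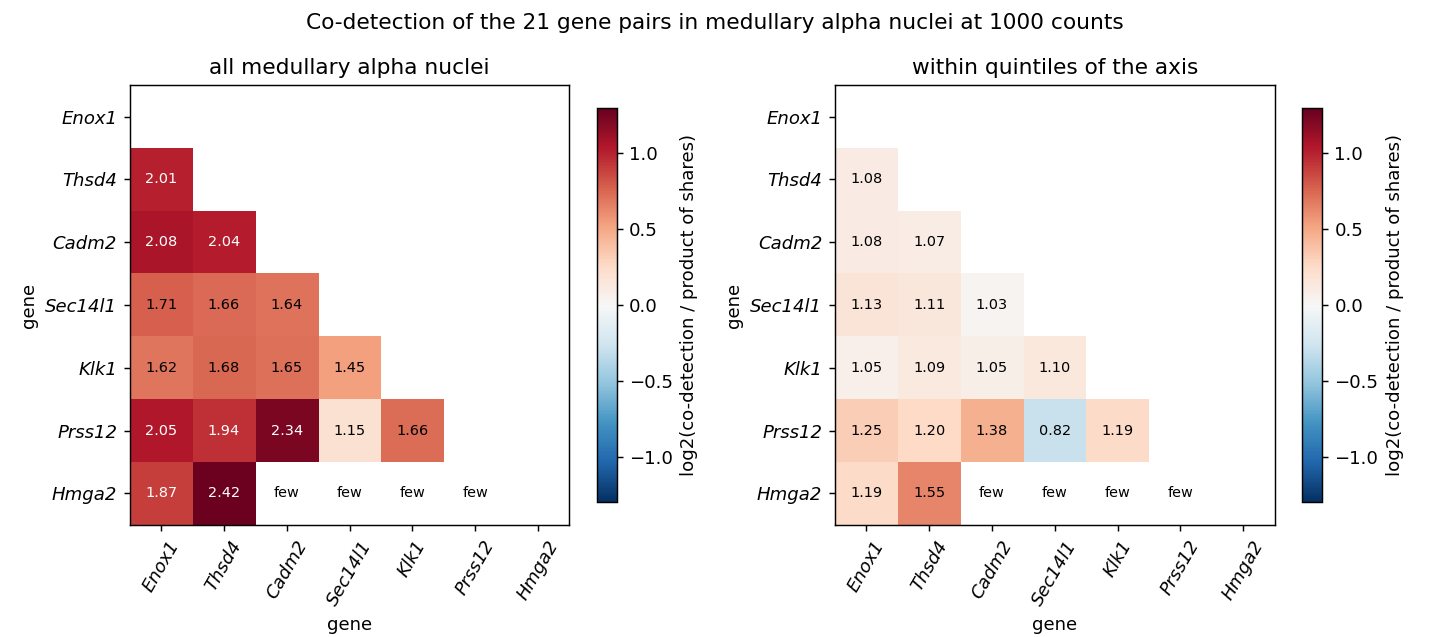
Co-detection of the 21 pairs in medullary TAL-α nuclei at 1000 counts, as the ratio to the product of the genes' shares (numbers in the cells, colour on a log2 scale), over all nuclei (left) and within quintiles of the axis (right), with "few" for pairs under 5 expected nuclei. Ratios from 1.15 to 2.42 on the left shrink to between 0.819 and 1.55 on the right.

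The level of each gene but Hmga2 rose with the number of the other 6 detected in the same nucleus. Enox1 was at 168 CPM in the 1689 medullary TAL-α nuclei with none of the others and at 2936 CPM in the 109 nuclei with 4 or more, a ratio of 17.5 (14.9 to 20.6). The ratio was 15.6 (13.3 to 18.2) for Thsd4 and 14.5 (11.2 to 18.7) for Cadm2. It was only 5.76 (4.59 to 7.21) for Sec14l1, 5.55 (4.51 to 6.81) for Klk1 and 6.93 (3.33 to 14.8) for Prss12. Hmga2 had at most 8 counts per group. It was at 1.31, 5.62, 5.24, 0 and 23.7 CPM with 0, 1, 2, 3 and 4 or more of the others. These are the same nuclei as along the axis.

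In cortical TAL-α the median pair was at 1.08 times the product and the variance at 1.42 times that of independent genes. Nuclei with none of the 7 genes were rare there, at 2.37% (1.84 to 3). That was 5.33 times (4.14 to 6.74) the product of 0.445% and 2.35 times the product within quintiles. The largest ratio possible depends on the product, 0.445% here and 22.5% in medullary TAL-α. The ratios of these 2 classes are therefore not compared. In cortical MD nuclei the median pair was at 1.01 and 0 of 15 pairs had an interval apart from 1. Medullary TAL-β was at 1.27 for 10 pairs and 1.03 within quintiles. The ratio of a pair is capped by the larger of its genes' shares. Enox1 and Thsd4 were detected in 83.3% and 96.6% of cortical MD nuclei and in 82.6% and 81.9% of cortical TAL-α. In medullary TAL-α they were detected in 31.5% and 34%. Pairs with these genes thus had little room above 1 in the cortical classes, and the medians are not ranked between classes. In medullary TAL-γ, where 71% of nuclei showed none of the genes, 804 nuclei showed exactly 1 gene, 0.822 times the product, and 151 showed 2, at 0.97 times. The median pair was at 2.01 times the product and at 1.45 within quintiles, and 14 nuclei (0.396%) showed 4 or more against 0.0134% for the product. The part of the TAL-γ nuclei that lay in medullary cluster 6, or in clusters with few or no TAL-γ markers raised, was not tested.

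The relatives and partners of the 7 genes, listed by what the proteins do, are described by their TAL-α ratios. Of 27 family members, 8 had at least 50 counts in TAL-α and 1 was past 2-fold, Klk1b5 at 2.25 (1.9 to 2.68), which may share reads with Klk1. Enox2 and Cadm1, the nearest relatives of Enox1 and Cadm2, were at 0.842 (0.787 to 0.9) and 0.931 (0.849 to 1.02) and were named here after their values were seen, as were Kng2 and Agrn. Of 13 partners, 12 were in the files, 8 had at least 50 counts and 3 were at least 2-fold higher in cortex. Among all 12585 genes with at least 50 counts, 8.84% were, and nothing is read from the counts of relatives and partners. Bdkrb2, the kinin receptor B2, was at 39.7 and 11.5 CPM, a ratio of 3.45 (2.76 to 4.33), while Kng2, a kininogen and so a substrate of kallikrein, was at 0.929 (0.91 to 0.949). Igf2bp2, an RNA-binding protein whose gene is a known target of Hmga2, was at 2.92 (2.18 to 3.93), and its relative Igf2bp1 at 2.4 (1.45 to 4.1), while the third relative, Igf2bp3, went the other way at 0.668 (0.471 to 0.939). Agrn, the substrate of neurotrypsin, was at 0.851 (0.765 to 0.946). Of the 8 TAL genes of all classes, 0 were past 2-fold in either direction, with a median of 0.84. The other cortex score genes were all past 2-fold (8 of 8, among them Tmem117 at 2.22 and Pde10a at 4.63), and 11 of 13 medulla score genes were at least 2-fold lower in cortex, but the study chose both lists on these libraries.

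The cut at 10 Slc12a1 counts passed through few barcodes. In cortex, 30 barcodes at 8 or 9 counts held 5634 CPM of the 7 genes in sum, and 45 barcodes at 10 or 11 counts held 5909 CPM. In medulla only 3 and 7 barcodes lay so near, with 3579 and 6423 CPM.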

How the data were processed

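Nuclei were sorted by their Sun1-sfGFP tag and sequenced with PIPseq 3′ chemistry. The authors demultiplexed with bcl2fastq, counted with PIPseeker on GRCm39 and analysed in Seurat 4.4.0, per the labels and the study's methods, and the annotation release is not given in the sources used here. The deposited matrices hold whole-number counts per gene and barcode, before the authors' doublet removal, ambient RNA correction and scaling, none of which was repeated. Clusters are the graph clusters deposited with them.

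Counts were summed per class with Python 3.11.15, numpy 2.4.6, scipy 1.17.1 and pandas 2.3.3. Ratios past 2-fold were counted where a gene had at least 50 counts in the groups compared, members with fewer being named. Detection was read after thinning each nucleus to 1000 counts. Likeness was Pearson's r of log2(CPM + 10) over clusters of at least 50 barcodes, and the 3 nearest genes were named, except where a result is not reported here. With 1 library per region no p-value was computed. Doublets were kept. Scrublet, as run in scanpy 1.11.5, called 338 barcodes in cortex and 2 in medulla, where it had not worked, so for the alternative without doublets the top 5% of medullary scores (406) were left out. The intervals of ratios of levels were tested on data simulated without spread between nuclei, animals or libraries. That test does not cover such spread, nor the intervals of ratios to a product. The members and all gene lists were chosen with earlier results of these data known.

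Other values for the Slc12a1 minimum, class thresholds, barcode filters, thinning, fold, axis and grouping were tried.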

Additional observations from a re-analysis of the deposited data

Results flagged for a closer look

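Thsd4 and Sec14l1 stood out because they were higher in cortex than in medulla in TAL-α nuclei and lower in MD nuclei. The cortex to medulla ratio in MD nuclei was 0.877 (0.813 to 0.947) for Thsd4 and 0.776 (0.662 to 0.914) for Sec14l1, against 2.75 and 2.54 in TAL-α. The difference between the classes was not tested, and the ratios of all genes in MD nuclei were not computed. The medullary MD class holds 78 nuclei of 1 library, from a portion that includes deep cortex.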

How the results depend on the processing

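The alternatives were run for the TAL-α and TAL-β ratios, the fall in medullary TAL-α, the counts of genes past 2-fold and co-detection in medullary TAL-α, and 0 of these values turned their direction. The MD and TAL-γ ratios between libraries, the falls in other classes and the cluster levels were not recomputed. The ratio of medullary TAL-α nuclei without any of the 7 genes to the product, 1.79 as reported, was 1.71 with class thresholds raised by 1, 1.91 in TAL-α nuclei without any other class marker, 2.27 at 1500 counts, 3.11 without thinning and 1.68 in the deposited clusters. The count of genes at least 2-fold higher in cortical TAL-β, 2 as reported, was 1 with doublets left out and 4 in the deposited clusters. At a fold of 1.5 it was 6 and at a fold of 3 it was 1, where the count in TAL-α was 2. Of the values of single genes, 172 stayed within their counting interval and 38 moved. The cause was not tested beyond what a change of fold or depth sets by itself.

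No paired analysis was possible because each region has 1 library. Depth limits Prss12 and Hmga2 outside TAL-α, and the intervals hold no difference between animals or libraries.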
